A study of Mus musculus with 4 samples.

Results

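The mitosis and spindle checkpoint genes described here are 46 protein-coding genes whose products drive, monitor or carry out cell division. They were chosen by name, as rows of the deposited count table, and all 46 were found among its 23420 gene rows. Expression had been measured by RNA sequencing in MK1 and MK2, 2 lines of mouse keratinocytes, the epithelial cells that build the epidermis. Each line was represented by 2 biological replicate cultures, with no treatment, genotype, age or time point named for either in the labels, and the series belongs to work on targets of the transcription factor p63 in mouse and human skin. Passage number and culture density are not given in the sources used here. Each group is a single line, so the p-values measure the spread between cultures within lines and do not speak for other keratinocyte lines.

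Dividing cells switch on a late wave of genes as they pass from DNA replication into mitosis. Cyclin A and cyclin B bind the kinase CDK1 to start mitosis, Aurora and Polo-like kinases build the spindle, and the spindle checkpoint holds back anaphase until every chromosome is attached. The ubiquitin ligase APC/C then destroys cyclin B and securin, sister chromatids separate, and the cell is cut apart at cytokinesis. Promoters of such genes are known for CCAAT boxes, bound by NF-Y, and for an element near the start site called the cell cycle genes homology region (CHR), which is bound by complexes built on the MuvB core: DREAM represses there, and MuvB with B-Myb and FOXM1 activates. In epidermis, division is a property of basal keratinocytes.

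Promoter windows of 300 bases, from 250 before to 50 after the RefSeq start site (GRCm38.p6), were at hand for 38 of the 46 genes, some with more than 1 start site, giving 41 windows. The letters searched were TTTGAA or TTCGAA for the CHR and CCAAT for the NF-Y box, on both strands. A CHR match lay in 29 of the 38 genes' windows and a CCAAT match in 28, and 25 genes had both. By window, 78.0% of the 41 held a CHR match and 68.3% held both kinds, whereas 19.2% of all 32851 windows held a CHR match and 7.52% of them held both. A CCAAT match, with or without a CHR match, was present in 75.6% of the windows of mitotic genes and 37.4% of all windows. Neither kind of match was found in these windows of Birc5, Mad2l1, Nuf2, Nusap1, Plk4 or Pttg1. Forkhead letters (TAAACA) were in 12.2% of the 41 windows against 13.4% of all, and E2F letters (TTTGGCGC or TTTCCCGC) in 2.44% against 1.56%. Set against the 11786 windows of the other tested genes alone, the order turned for both, with 8.31% for forkhead and 2.89% for E2F letters, while CHR matches were in 13.5% of those windows, CCAAT in 37.8% and both in 5.55%.

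The 150 bases from 120 before to 30 after the start site are printed below, 5′ to 3′ on the gene's own strand. They are given for the 4 genes with the largest increases in MK2 (Aurka, Cdca8, Cdc25b and Bub1). They are also given for 4 whose difference did not pass the test (Cdk1, Ccnb2, Kif23 and Prc1). The latter all have both kinds of match, so the display does not show how often uncalled genes carry them. Other uncalled genes lack 1 or both, among them Ccnb1, Ndc80, Kif15, Nuf2 and Pttg1. Capitals mark CHR and CCAAT matches on either strand (a CCAAT on the other strand reads ATTGG).
Aurka: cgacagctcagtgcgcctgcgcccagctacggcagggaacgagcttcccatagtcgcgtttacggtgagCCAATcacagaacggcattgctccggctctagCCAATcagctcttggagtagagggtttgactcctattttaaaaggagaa
Cdca8: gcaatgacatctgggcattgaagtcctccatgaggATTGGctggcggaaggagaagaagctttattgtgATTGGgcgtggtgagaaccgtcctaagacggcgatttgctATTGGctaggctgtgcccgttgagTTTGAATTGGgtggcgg
Cdc25b: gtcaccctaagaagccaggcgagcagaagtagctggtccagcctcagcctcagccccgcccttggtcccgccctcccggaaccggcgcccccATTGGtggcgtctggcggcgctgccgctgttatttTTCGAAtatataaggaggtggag
Bub1: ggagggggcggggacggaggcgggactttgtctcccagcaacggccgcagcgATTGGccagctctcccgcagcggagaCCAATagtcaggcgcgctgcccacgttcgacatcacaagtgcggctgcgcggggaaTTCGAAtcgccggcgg
Cdk1: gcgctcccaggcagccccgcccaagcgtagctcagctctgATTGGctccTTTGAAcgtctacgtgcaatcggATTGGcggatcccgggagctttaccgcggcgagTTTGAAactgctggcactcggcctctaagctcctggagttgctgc
Ccnb2: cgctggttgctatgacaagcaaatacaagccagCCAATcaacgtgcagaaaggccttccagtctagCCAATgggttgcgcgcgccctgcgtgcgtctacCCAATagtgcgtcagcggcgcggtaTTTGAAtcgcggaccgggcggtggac
Kif23: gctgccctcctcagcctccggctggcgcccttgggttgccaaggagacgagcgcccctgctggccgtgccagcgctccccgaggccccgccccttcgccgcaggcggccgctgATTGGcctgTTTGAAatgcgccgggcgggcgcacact
Prc1: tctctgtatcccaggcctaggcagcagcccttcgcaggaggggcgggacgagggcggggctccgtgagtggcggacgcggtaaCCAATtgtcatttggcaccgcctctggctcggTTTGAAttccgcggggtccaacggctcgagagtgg
Their positions are Aurka at chr2:172370541-172370690, minus strand, Cdca8 at chr4:124936888-124937037, minus strand, Cdc25b at chr2:131186828-131186977, plus strand, Bub1 at chr2:127831830-127831979, minus strand, Cdk1 at chr10:69352883-69353032, minus strand, Ccnb2 at chr9:70421525-70421674, minus strand, Kif23 at chr9:61946770-61946919, minus strand and Prc1 at chr7:80294331-80294480, plus strand. In Aurka the printed stretch ends just before a CHR match that starts 33 bases into the transcript, and in Cdca8 the CHR match overlaps a CCAAT match, the one overlap among the 41 windows. Of the 25 genes with both kinds of match, 14 were called higher in MK2, with log2 changes from -0.23 to 1.66 and a median of 0.48. Of the 13 genes with a window that lacked 1 or both, 8 were called higher, with log2 changes from -0.20 to 0.85 and a median of 0.54. Over all tested genes 25.9% were called higher. A match of letters is a description of the window and shows no binding.

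**Figure D1:**
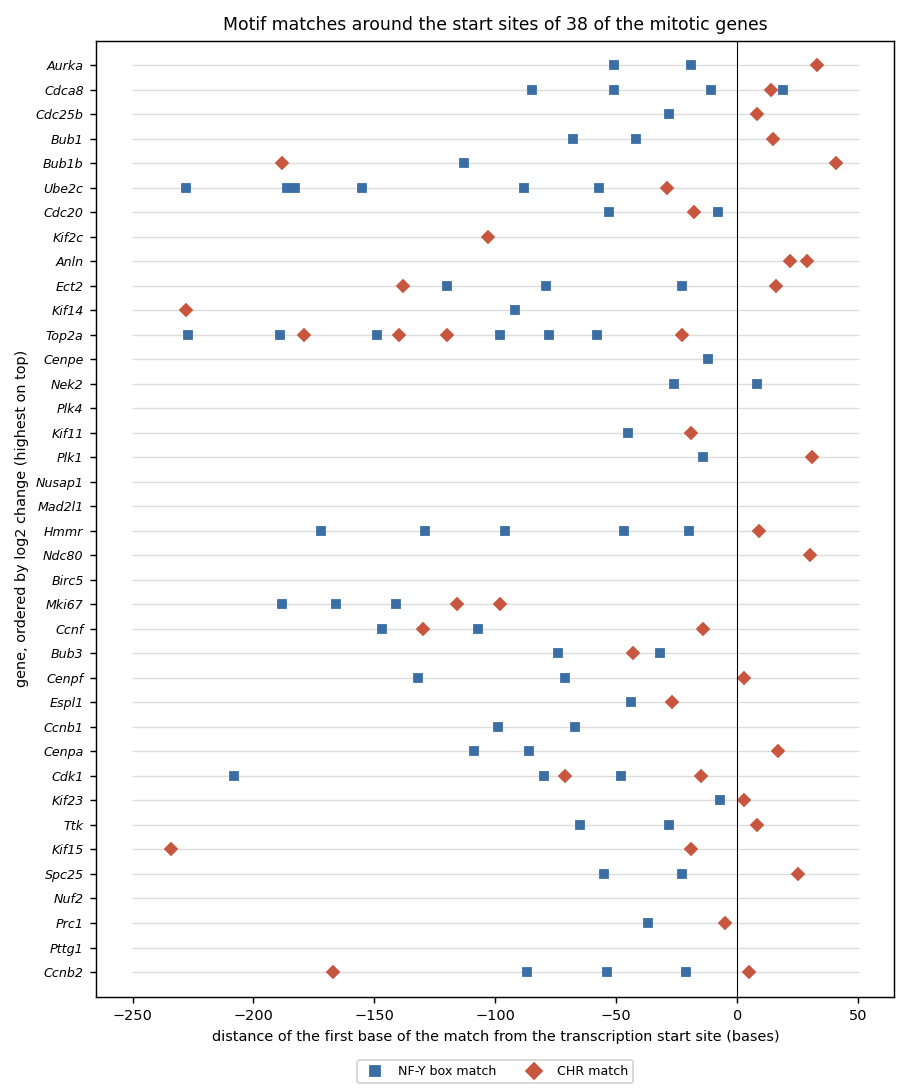
Positions of CHR matches (diamonds) and NF-Y box (CCAAT) matches (squares) relative to the start site, in bases, for the 38 genes with a promoter window, ordered by log2 change between the lines with the highest on top. For genes with more than 1 start site the window with the lowest coordinate is drawn. Both kinds of match occur from the top (Aurka, 1.66) to the bottom (Ccnb2, -0.23) of the order.

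Libraries held between 25237391 and 30261111 counts, and all 46 genes were well counted, with at least 389 counts in every library, so all 46 passed the low-count filter in both lines. Levels are given as CPM, counts per 1000000 scaled with edgeR's TMM factors. As a sum, both lines carried basal keratinocyte markers at high level, with 18 such genes together between 30867 and 33963 CPM. Single markers differed: 4 of the 18 were called higher and 5 lower in MK2 (25.9% and 28.6% of all tested genes were). Their log2 changes ran from -1.06 to 1.60. In bulk RNA a larger share of dividing cells and more RNA per dividing cell cannot be told apart.

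MK2 carried more mitotic transcript than MK1. Of the 46 genes, 28 were higher in MK2 and 1 was lower when edgeR's quasi-likelihood p-values were adjusted by Benjamini-Hochberg over all 12479 tested genes (threshold 0.05), while 17 did not pass. The background was high: 25.9% of all tested genes were called higher and 28.6% lower, so 60.9% of the mitotic genes against 25.9% of all genes were higher and 2.17% against 28.6% were lower. In all, 29 of the 46 passed in either direction, against 54.6% of all genes. The median log2 change, MK2 minus MK1, was 0.60 for the mitotic genes and -0.0098 for all tested genes. Changes were moderate: 2 genes, Aurka and Cdca8, were called higher beyond 2-fold by edgeR's glmTreat (3.25% of all genes). By the same test 0 were called lower beyond 2-fold (10.1% of all genes), also 0 at an unadjusted p under 0.05 and 0 with DESeq2. In 35 of the 46 genes both MK2 cultures stood above both MK1 cultures (39.5% of all tested genes), and in 3, Tpx2, Ccnb2 and Pttg1, both stood below (40.9% of all).

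The count depended most on the first MK1 culture. Without MK1 replicate 1, 12 of the 46 were called higher, against 12.1% of all genes in that fit (1 lower, against 17.3%), and the median log2 change was 0.45. Ccna2, Cdc25b, Aurka, Plk1, Bub1, Bub1b, Incenp, Cdca8, Kif2c, Cdc20, Ube2c and Anln were those 12, and they were called under each of the 12 alternatives that gave a test. Without MK1 replicate 2 25 were higher (14.7% of all genes) and Tpx2 no longer passed as lower (19.5% of all genes did). Without MK2 replicate 1, 23 were higher (24.0%) and 1 lower (26.9%), and without MK2 replicate 2, 36 were higher (25.3%) and 1 lower (28.5%).

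**Figure D2:**
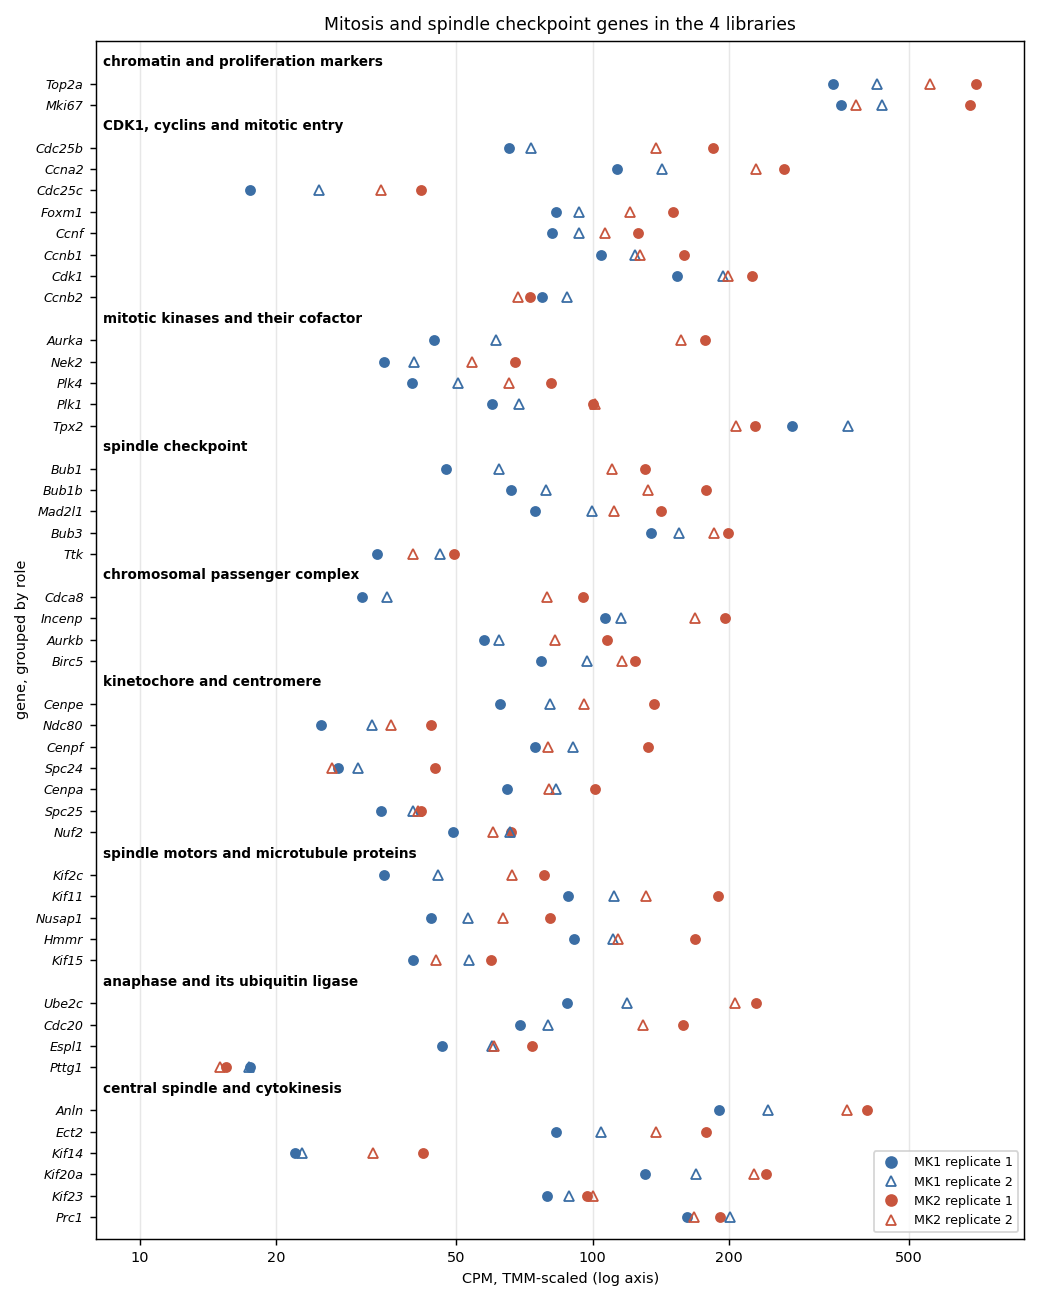
Level of each of the 46 genes in each of the 4 libraries, in CPM on a log axis, grouped by role and, within a role, ordered by log2 change. Blue marks MK1 and red MK2, filled circles are replicate 1 and open triangles replicate 2. In most rows the order from left to right is MK1 replicate 1, MK1 replicate 2, MK2 replicate 2 and MK2 replicate 1.

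The 2 cultures of each line also differed from each other, and the mitotic genes moved together there. In MK1, 45 of the 46 genes were higher in replicate 2 than in replicate 1, by a median of 0.32 on the log2 CPM scale, and in MK2, 44 of the 46 were lower in replicate 2, with a median of -0.29. Among all tested genes 50.03% were higher in MK1 replicate 2 and 49.4% were lower in MK2 replicate 2. Both shifts were seen in 43 of the 46 mitotic genes (93.5%) and in 26.7% of all tested genes. Pttg1 (securin) was the gene that was not higher in MK1 replicate 2, at 17.5 and 17.4 CPM, and Kif23 and Plk1 were the genes that were not lower in MK2 replicate 2.

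Together the 46 genes took 0.401% and 0.497% of the counts in MK1 replicates 1 and 2, and 0.724% and 0.580% in MK2 replicates 1 and 2. The difference between the lines therefore varied with the cultures compared. From MK1 replicate 1 to MK2 replicate 1 the median log2 difference was 0.88, with 43 of 46 genes higher. From MK1 replicate 2 to MK2 replicate 2 it was 0.26, with 35 higher and 11 lower. S phase genes, listed for comparison, shifted the same way within lines: all 36 were higher in MK1 replicate 2 (median 0.20), and 33 were lower in MK2 replicate 2 (median -0.15). Nothing in the labels says how the 2 cultures of a line differed, and the part that this within-line shift has in the difference between the lines was not tested.

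**Figure D3:**
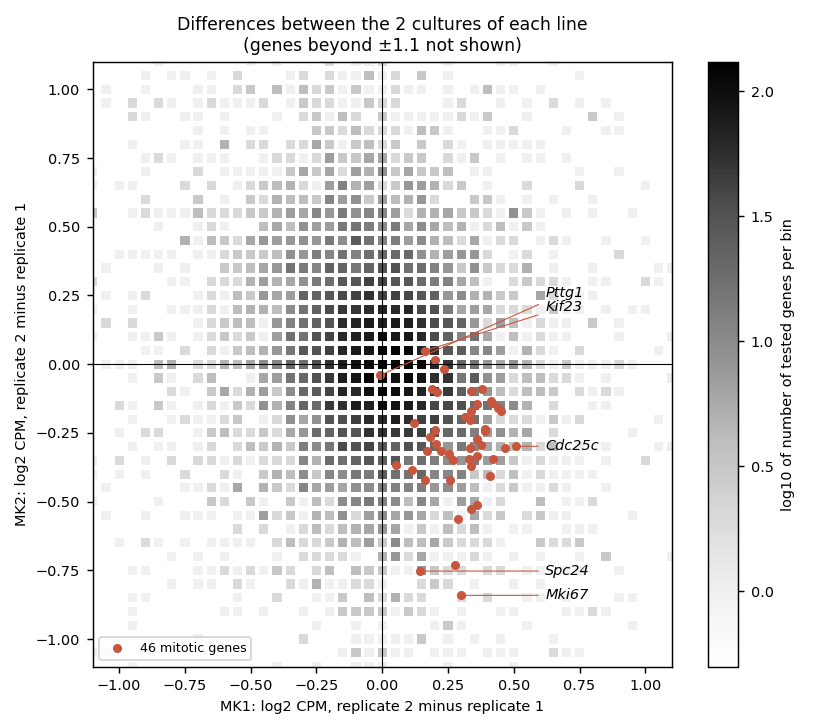
Log2 CPM of replicate 2 minus replicate 1 in MK1 (horizontal) and in MK2 (vertical), with the 46 mitotic genes as red points over a grey density of all tested genes (darker squares hold more genes, log10 scale). The red points fill the lower right part, where 43 of 46 lie, and Mki67 and Spc24 lie lowest.

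The proliferation marker Mki67, which encodes the chromosome-surface protein Ki-67 (chromosome 7, 135689788 to 135716379, mm10), shows what that spread does to a single gene. Its level was 355 and 437 CPM in MK1, against 684 and 382 CPM in MK2. The second MK2 culture thus lay between the MK1 cultures, and the difference did not pass (log2 change 0.43, SE 0.26, adjusted p = 0.202 in edgeR's quasi-likelihood test). Without MK2 replicate 1 its log2 change was -0.046. Top2a, which encodes the topoisomerase that untangles sister chromatids, stood at 339 and 426 CPM in MK1 and at 705 and 556 CPM in MK2, with no overlap, and rose by 0.72 (SE 0.16, adjusted p = 0.00945 in edgeR's test). Its call was lost without MK1 replicate 1 (adjusted p = 0.0931).

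By their own levels, Cdk1 and the cyclin genes among the 46 did not move as a block. Relative to the median of the 50 nearest tested genes all stood higher. Ccna2 differed by 0.77, Ccnb1 by 0.63, Cdk1 by 0.55, Ccnf by 0.53 and Ccnb2 by 0.15. Ccna2, which encodes the cyclin of S phase and early mitosis (chromosome 3, 36564865 to 36571996), stood at 113 and 143 CPM in MK1 and at 264 and 229.6 CPM in MK2. That is a rise of 0.95 (SE 0.14, adjusted p = 0.00196 in edgeR's test), with the groups well apart. Some 13.4% of its exon bases overlap Exosc9 on the other strand, and the counting command set no strand option.

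Ccnb1, which encodes the main mitotic cyclin (chromosome 13, 100778739 to 100786486), stood at 104 and 124 CPM in MK1 and at 159.6 and 127 CPM in MK2. Its groups did not overlap, but the second cultures of the lines were close, and the difference did not pass (log2 change 0.33, SE 0.15, adjusted p = 0.103 in edgeR's test). Ccnb2, the second B-type cyclin (chromosome 9, 70407689 to 70421554), went the other way, with 77.2 and 88.0 CPM in MK1 and 72.8 and 68.4 CPM in MK2. It did not pass either (log2 change -0.23, SE 0.11, adjusted p = 0.132 in edgeR's test), and both B-type cyclins have an annotated pseudogene with which reads could be shared. Cdk1 itself (chromosome 10, 69336635 to 69352912) stood at 154 and 194 CPM in MK1 and at 224 and 199 CPM in MK2. The kinase gene's groups nearly touched, and its difference did not pass (log2 change 0.28, SE 0.14, adjusted p = 0.130 in edgeR's test).

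The genes Cdc25b and Cdc25c, which encode phosphatases that switch CDK1 on, were both higher. Cdc25b (chromosome 2, 131186948 to 131198511) stood at 65.2 and 72.9 CPM in MK1 and at 185 and 138 CPM in MK2, a 2.34-fold rise (log2 change 1.22, SE 0.16, adjusted p = 0.00104 in edgeR's test). Cdc25c rose by 0.84 (adjusted p = 0.0105 in edgeR's test), a call that was lost without MK1 replicate 1 (adjusted p = 0.0763). Foxm1, the forkhead factor that drives late cell-cycle transcription, stood at 82.8 and 93.2 CPM in MK1 and at 151 and 121 CPM in MK2. It rose by 0.63 (SE 0.14, adjusted p = 0.00878 in edgeR's test), and its adjusted p was 0.0896 without MK1 replicate 1. Ccnf, which encodes the F-box protein cyclin F, rose by 0.41, and lost its call under 5 of the 12 alternatives.

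Aurka, the centrosomal Aurora kinase (chromosome 2, 172356196 to 172370506), had the largest change of the 46. It stood at 44.7 and 61.1 CPM in MK1 and at 177 and 157 CPM in MK2, a 3.16-fold rise (log2 change 1.66, SE 0.17, adjusted p = 3.81e-04 in edgeR's test). Its spindle partner Tpx2, which activates Aurora A and targets it to microtubules (chromosome 2, 152847964 to 152895321), was the one gene that fell. Tpx2 stood at 275 and 367 CPM in MK1 and at 229 and 207 CPM in MK2, so both MK2 cultures lay below both MK1 cultures. The log2 change was -0.56 (SE 0.15, adjusted p = 0.0204 in edgeR's test), and without MK1 replicate 2 it was -0.34 and did not pass (adjusted p = 0.139).

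Aurka and Tpx2 thus differed in opposite directions between lines although their levels had shifted the same way between the cultures of each line, upward in MK1 (0.45 and 0.42) and downward in MK2 (-0.17 and -0.14). Per kilobase of exon, Tpx2 stood at 73.6 ± 14.9 RPKM in MK1 and Aurka at 27.8 ± 6.10 RPKM (SD, n = 2 cultures). In MK2 the order was turned, with 49.9 ± 3.48 RPKM for Tpx2 and 87.7 ± 7.39 RPKM for Aurka. RPKM here are CPM divided by the deposited gene length in kilobases. The other 3 kinase genes of this group rose less: the mitotic kinase Plk1 by 0.65, the centriole-duplication kinase Plk4 by 0.70 and the centrosome-separation kinase Nek2 by 0.70. Plk4 and Nek2 did not pass without MK1 replicate 1 (adjusted p = 0.0881 and 0.0742).

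Tpx2 lies in a stretch of chromosome 2 where the median gene was lower in MK2. The 50 nearest tested genes had a median log2 change of -0.51, whereas the median over the chromosome's 979 tested genes was 0.36. Of the 10 nearest tested genes, 5 were called lower (28.6% of all tested genes were), 3 higher (25.9% of all) and 2 were not called. Among the lower were Bcl2l1, which encodes the survival protein BCL-xL, with a log2 change of -1.55, and Pdrg1 with -0.94. The 3 that rose were the differentiation inhibitor Id1, from 0.413 to 52.2 CPM, Mcts2, from 14.0 to 37.8 CPM, and 6820408C15Rik, listed at 0 in MK1 and at 4.92 CPM in MK2. These neighbours were named after their values were seen. Relative to its neighbours Tpx2 differed by -0.053.

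Most of the other genes stood above their surroundings. Medians of the 50 nearest tested genes ran from -0.51 to 0.66 over the 46 genes, and 43 of the 46 stood above the median of their neighbours, with a median difference of 0.55 over all 46; Tpx2, Spc25 and Pttg1 stood below. Chromosomes 2 and 4, with 8 and 3 of the genes, had the highest chromosome medians among those that carry mitotic genes (0.36 and 0.37). Of the 6 largest increases, Aurka, Cdc25b, Bub1, Bub1b and Ube2c lie on chromosome 2 and Cdca8 on chromosome 4. Kif2c, on chromosome 4, rose by 0.85 where its neighbours had a median of 0.66, and Spc25, on chromosome 2, had a log2 change of 0.16 where its neighbours had 0.47.

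**Figure D4:**
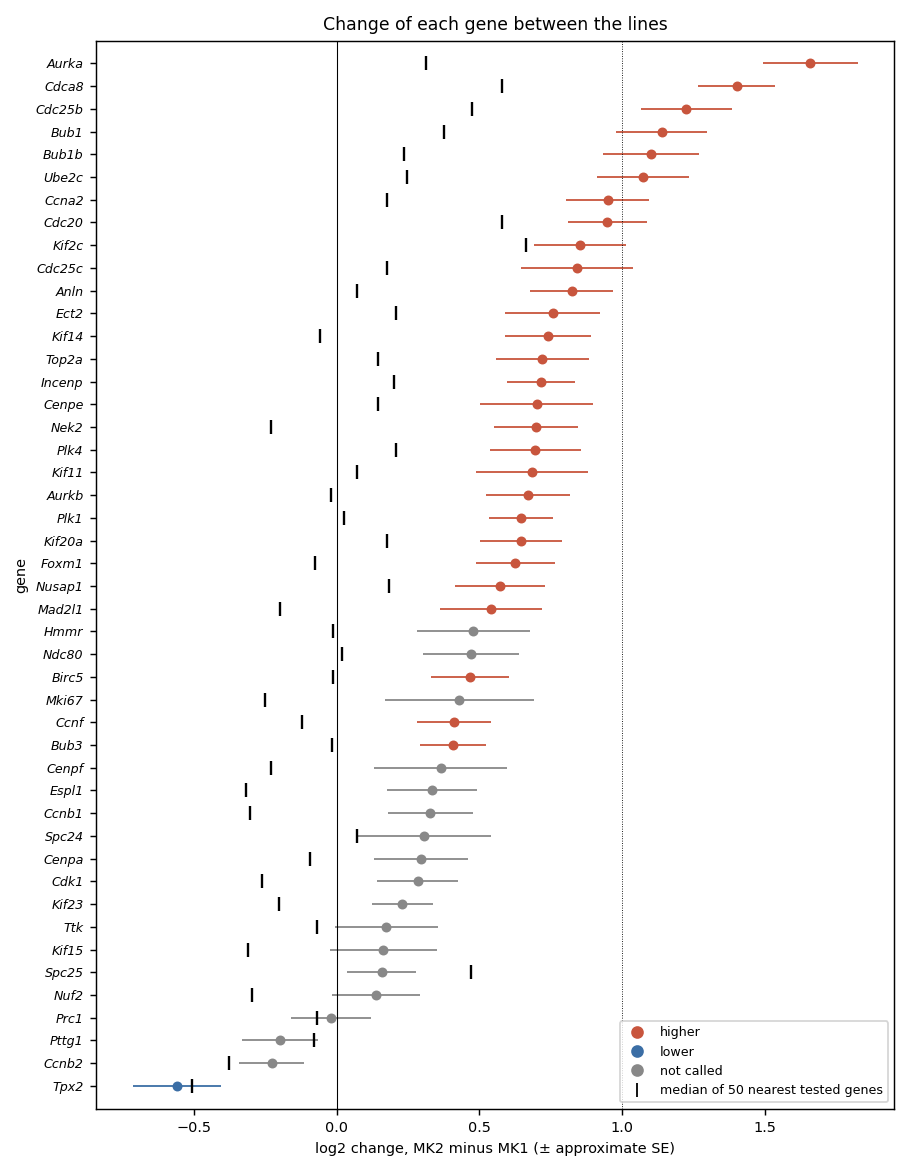
Log2 change, MK2 minus MK1, of each of the 46 genes with its approximate standard error (horizontal bars), coloured by call (red higher, blue lower, grey not called). Black ticks give the median log2 change of the 50 nearest tested genes, and the dotted line marks a log2 change of 1. Points run from Tpx2 at -0.56 to Aurka at 1.66, and 43 of the 46 lie to the right of their tick.

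Of 5 spindle checkpoint genes, 4 were higher (25.9% of all tested genes were). Bub1, a kinase that marks unattached kinetochores (chromosome 2, 127800200 to 127831859), stood at 47.3 and 62.1 CPM in MK1 and at 130.4 and 110.3 CPM in MK2. It rose by 1.14 (SE 0.16, adjusted p = 0.00143 in edgeR's test). Bub1b, which encodes the checkpoint protein BUBR1, stood at 66.0 and 78.9 CPM in MK1 and at 178 and 133 CPM in MK2, a 2.14-fold rise with the groups well apart. Both were more than doubled at the level of the means, though glmTreat did not call either beyond 2-fold (adjusted p = 0.401 and 0.569).

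Bub3, the WD-repeat partner of both, rose less: it stood at 134.5 and 155 CPM in MK1 and at 199 and 186 CPM in MK2 (log2 change 0.41, SE 0.12, adjusted p = 0.0226 in edgeR's test). Mad2l1, which encodes the checkpoint effector MAD2, stood at 74.5 and 99.8 CPM in MK1 and at 142 and 112 CPM in MK2 (log2 change 0.54, SE 0.18, adjusted p = 0.0383 in edgeR's test). The calls of Bub3 and Mad2l1 were lost without MK1 replicate 1 (adjusted p = 0.181 and 0.236), that of Bub3 also without MK1 replicate 2 (0.0527) and that of Mad2l1 also without MK2 replicate 1 (0.112). Ttk, the kinase MPS1 at the top of the checkpoint, stood at 33.3 and 46.02 CPM in MK1 and at 49.5 and 40.1 CPM in MK2. Its groups overlapped (log2 change 0.17, SE 0.18, adjusted p = 0.444 in edgeR's test), and without MK1 replicate 1 the sign was negative (-0.044). Per kilobase, Bub3 was the most abundant of the 5 in both lines, at 70.6 ± 7.22 RPKM in MK1 and 93.6 ± 4.57 RPKM in MK2 (SD, n = 2 cultures).

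All 4 genes of the chromosomal passenger complex, which corrects faulty attachments, were higher (25.9% of all tested genes were). Cdca8, which encodes its subunit borealin (chromosome 4, 124918465 to 124936917), stood at 30.9 and 35.1 CPM in MK1 and at 95.1 and 79.2 CPM in MK2, a 2.64-fold rise (SE 0.14 on the log2 scale, adjusted p = 3.28e-04 in edgeR's test). The other 3 rose less: the scaffold gene Incenp by 0.72, the kinase gene Aurkb by 0.67 and the survivin gene Birc5 by 0.47. Incenp kept its call without MK1 replicate 1 (adjusted p = 0.0423), and Aurkb and Birc5 did not (adjusted p = 0.0828 and 0.174). Per kilobase, Cdca8 had the lowest mean of the 4 in MK1 (20.3 ± 1.81 RPKM), and in MK2 (53.6 ± 6.91 RPKM) it stood near Incenp (56.6 ± 5.96) and Aurkb (48.6 ± 9.11), within 1 SD of each (SD, n = 2 cultures).

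Kinetochore genes had the lowest median log2 change of the roles, 0.31. Of 7, all with a positive log2 change, 1 was called (54.6% of all tested genes were, in either direction). This was Cenpe, the motor that carries chromosomes to the spindle equator, which rose by 0.70 (adjusted p = 0.0219 in edgeR's test). The call did not hold in the fits that left out the first culture of MK1 (log2 change 0.53) or of MK2 (0.43). The 4 subunits of the NDC80 complex, which grips microtubules, had log2 changes of 0.47 (Ndc80, adjusted p = 0.0502 in edgeR's test), 0.31 (Spc24), 0.16 (Spc25) and 0.14 (Nuf2). Spc24 stood at 27.4 and 30.3 CPM in MK1 and at 44.8 and 26.6 CPM in MK2, and like Mki67 and Cenpf it was raised in the first MK2 culture alone. The centromeric histone gene Cenpa had a log2 change of 0.30, and Cenpf, a large corona protein, of 0.36. Neither passed (adjusted p = 0.171 and 0.224 in edgeR's test).

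Among spindle motors and microtubule proteins, 3 of 5 were higher (25.9% of all tested genes were). Kif2c, a kinesin that takes microtubule ends apart, Kif11, the motor that pushes the poles apart, and Nusap1, a microtubule-bundling protein, rose by 0.85, 0.68 and 0.57. Kif2c passed in each fit that left out 1 culture. Kif11 did not pass without MK1 replicate 1 (adjusted p = 0.172), MK1 replicate 2 (0.0525) or MK2 replicate 1 (0.0569), and Nusap1 did not without MK1 replicate 1 (0.151) or MK2 replicate 1 (0.0524). Hmmr, a spindle-pole protein, stood at 91.1 and 111 CPM in MK1 and at 168 and 114 CPM in MK2 and did not pass (adjusted p = 0.0787 in edgeR's test). Kif15, a motor that works beside KIF11, had overlapping groups and a log2 change of 0.16. Nusap1 shares 7.03% of its exon bases with Oip5 on the other strand.

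The anaphase genes were split. Ube2c, the ubiquitin-conjugating enzyme of the APC/C (chromosome 2, 164769929 to 164772902), stood at 88.0 and 119 CPM in MK1 and at 230.2 and 206 CPM in MK2, a 2.10-fold rise (log2 change 1.07, SE 0.16, adjusted p = 0.00184 in edgeR's test). It was the most abundant of the 46 per kilobase in both lines, at 111 ± 23.9 and 234 ± 18.3 RPKM (SD, n = 2 cultures). Cdc20, the APC/C activator that the checkpoint restrains, rose by 0.95. Its substrate securin is encoded by Pttg1 (chromosome 11, 43420248 to 43426248), which stood at 17.5 and 17.4 CPM in MK1 and at 15.5 and 15.0 CPM in MK2, with both MK2 cultures below both MK1 cultures and no call (log2 change -0.20, SE 0.13, adjusted p = 0.244 in edgeR's test). Espl1, the separase that securin holds in check, had a log2 change of 0.33 and did not pass (adjusted p = 0.115 in edgeR's test).

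Cytokinesis genes showed a like split. Anln, which encodes the contractile-ring scaffold anillin, stood at 189.9 and 244 CPM in MK1 and at 403 and 364 CPM in MK2, and rose by 0.82 (adjusted p = 0.00343 in edgeR's test). Ect2, which activates RhoA at the division plane, and the kinesins Kif14 and Kif20a rose by 0.76, 0.74 and 0.64, and these 3 did not pass without MK1 replicate 1 (adjusted p = 0.0857, 0.0646 and 0.074). The other 2 were not called: the bundling protein gene Prc1 stood at 162 and 201 CPM in MK1 and at 191 and 167 CPM in MK2 (log2 change -0.019, adjusted p = 0.915 in edgeR's test), and Kif23, the motor of centralspindlin, had a log2 change of 0.23. The values of Kif20a, which shares 28.6% of its exon bases with Cdc23 on the other strand, are less certain for that reason.

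The wider machinery was described from lists of other genes, grouped by function and, like the 46 genes, chosen with earlier results of these data known. Among 14 genes of the MuvB, DREAM and NF-Y factors that act on these promoters, 7 were higher and 2 lower (median 0.30). Of all tested genes, 25.9% were higher and 28.6% lower. Mybl2, which encodes B-Myb, rose from 37.7 and 47.0 CPM in MK1 to 175 and 163 CPM in MK2, by 2.00 on the log2 scale (adjusted p = 9.33e-05 in edgeR's test), more than any of the 46. Rbl2, which encodes the DREAM pocket protein p130, fell by 0.91, and Nfyb, the gene of an NF-Y subunit, fell by 1.04, while E2f5 rose by 1.06. Tfdp1, the most abundant per kilobase of the list, had a log2 change of 0.23 and did not pass (adjusted p = 0.106 in edgeR's test).

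Regulators of mitotic entry outside the 46 genes had no common direction, with a median of -0.018. Of 13, 5 were higher and 3 lower (25.9% and 28.6% of all tested genes were). Mastl, the Greatwall kinase, and Cdc25a, a phosphatase of CDKs, rose by 0.91 and 0.85, and so did the CDK-binding Cks1b, by 0.72. Ppp2r2d, a phosphatase subunit that Greatwall restrains, and Ccnh, the cyclin of the CDK-activating kinase, fell by 0.45 and 0.43. Without MK1 replicate 1 or 2, neither passed (adjusted p = 0.0915 and 0.0797 for Ppp2r2d, 0.0951 and 0.152 for Ccnh), and Ccnh did not without MK2 replicate 1 either (0.079). Fewer of the 13 were called without MK1 replicate 1 or 2, but fewer of all tested genes were called in those fits too. Of 17 APC/C genes, 8 were higher (median 0.34), where 25.9% of all tested genes were higher and 28.6% lower. In edgeR's test 0 were lower, 1 at an unadjusted p under 0.05 and 0 with DESeq2. The rises were led by Cdc26 (1.08) and Anapc1 (0.97), with Ube2s, the most abundant per kilobase, at 0.49 (adjusted p = 0.12 without MK1 replicate 1). Fewer of the APC/C genes were called without MK1 replicate 1, as were fewer of all tested genes.

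Of 26 other kinetochore and centromere genes, 15 were higher and 1 lower, with a median of 0.52. Among all tested genes, 25.9% were higher and 28.6% lower. Dsn1, a subunit of the MIS12 complex, and Oip5, a loader of the centromeric histone, rose by 1.33 and 1.24 (Oip5 overlaps Nusap1), and Cenpt had a log2 change of 0.20. The 1 lower call was Zwint (-0.35), which passed in 0 of the 4 fits that left out 1 culture (adjusted p from 0.0575 to 0.239). Of 10 further checkpoint and corona genes, 5 were higher, with Spdl1 and the cohesin protector Sgol1 at 0.97 and 0.87 (both at an adjusted p of 0.0526 without MK1 replicate 1), and the corona gene Zw10 was lower (-0.71). Zwilch, the most abundant of these per kilobase, had a log2 change of 0.065. Fewer of the 26 and of the 10 were called without MK1 replicate 1, as were fewer of all tested genes. Fewer of the 26 were also called without MK2 replicate 1. With the replicate block 10 of the 26 were called, where 21.9% of all genes were higher and 25.4% lower.

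Of 18 condensin and cohesin genes, 7 were higher (median 0.34), where 25.9% of all tested genes were higher and 28.6% lower. In edgeR's test 0 were lower, also 0 at an unadjusted p under 0.05 and 0 with DESeq2. The condensin genes Smc2 and Ncapg rose most, by 1.24 and 0.80, whereas the cohesin ring gene Rad21, the most abundant per kilobase, had a log2 change of -0.035. Of 25 other spindle, centrosome and cytokinesis genes, 14 were higher and 2 lower (median 0.62). Haus6, of the augmin complex, and Stil, a centriole assembly factor, rose by 1.53 and 1.36, and the polo-like kinases Plk2 and Plk3, which are known to respond to stress, fell by 0.67 and 0.59. Neither passed without MK1 replicate 1 (adjusted p = 0.0644 and 0.212), nor Plk3 without MK2 replicate 1 (0.0839). The 36 S phase genes had 23 higher and 1 lower (median 0.52), close to the 46 mitotic genes. Their largest rises were Orc1 (1.94) and Mcm10 (1.43), Pcna rose by 0.98, and Rrm1 was the one that fell (-1.01). Fewer genes of the condensin and cohesin, other spindle and S phase lists were called without MK1 replicate 1, as were fewer of all tested genes. The condensin and cohesin count also fell without MK1 replicate 2, as did that of all tested genes, and it rose without MK2 replicate 2.

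**Figure D5:**
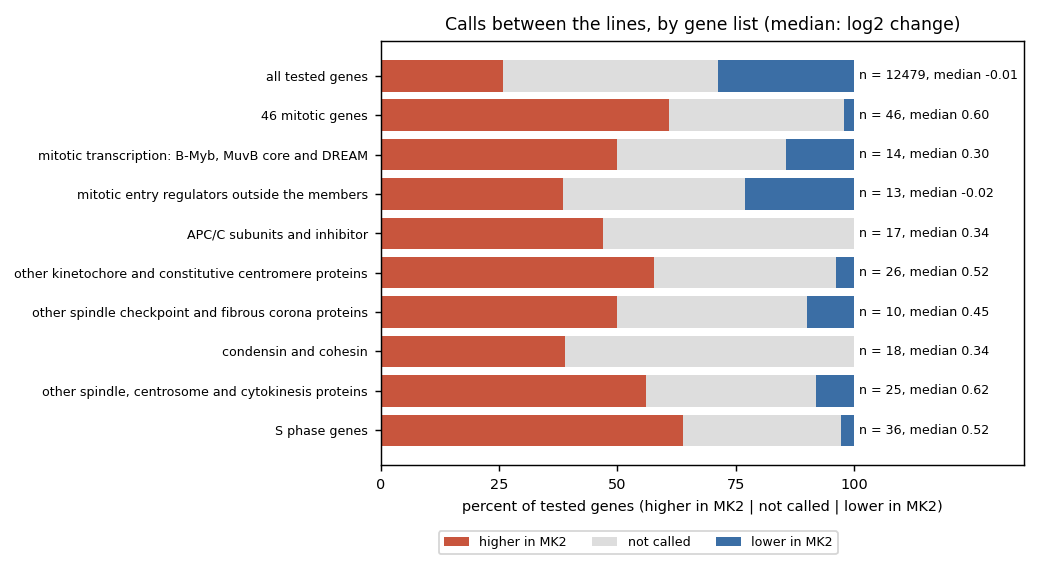
Percent of tested genes called higher in MK2 (red), not called (grey) and called lower (blue), for all tested genes, the 46 mitotic genes and 8 lists of related genes, with the number tested and the median log2 change of each. The mitotic genes have 60.9% higher and 2.17% lower, against 25.9% and 28.6% of all tested genes.

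Markers of other cell types were checked beside these results. A list of 10 B lymphocyte genes had a summed level of 34.9 and 35.2 CPM in the MK1 cultures and of 0.358 and 0.317 CPM in MK2, where 7 of the 10 were at 0 counts in each culture, Cd79b among them. The B lymphocyte sum was thus higher in both MK1 cultures than in either MK2 culture. The other leukocyte markers (11 genes) summed to 18.5 to 21.3 CPM in MK1 and 2.54 to 3.49 CPM in MK2, fibroblast markers (10 genes) to 4.51 to 4.97 and 1.03 to 1.41 CPM, and melanocyte markers (7 genes) to 5.36 to 6.08 and 3.54 to 3.98 CPM. Endothelial markers (6 genes) summed to 14.9 to 17.8 CPM in MK1 and 25.4 to 27.4 CPM in MK2, nearly all of it from Kdr, with Cdh5 at 0 in every library. The part of such cells in the results was not tested.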

How the data were processed

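RNA sequencing counts were analysed for 2 cultures each of MK1 and MK2. The authors deposited 1 table of raw read counts per gene, made with featureCounts on mm10 with no strand option set, per the file headers (version 1.4.6-p4; the submitters' processing notes give 1.5.0, with TopHat2 2.0.13, Bowtie2 2.2.6 and DESeq2 1.10.1). The header's command names the second line MKU where the columns say MK2. Totals were 25237391 to 30261111 counts, so 3 counts equal 0.0987 to 0.119 CPM, counting error only. Rows with 0 counts in every library numbered 6644.

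Counts were tested with edgeR 4.0.16 (R 4.3.3): filterByExpr with a minimum count of 10, TMM scaling, the quasi-likelihood test, Benjamini-Hochberg adjustment over all 12479 genes tested and a threshold of 0.05. Standard errors are approximate, the log2 change divided by the square root of F. glmTreat tested changes beyond 2-fold (a log2 change of 1). Log2 CPM used a prior count of 2, and neighbours are the 50 nearest tested genes. On simulated counts for this comparison (12285 genes tested), 93% of 2-fold and 100% of 4-fold changes were found, and 0.0579% of 12085 genes simulated without a change passed. Few genes were changed there, all of them well counted, and each gene varied on its own. These rates therefore do not carry over to changes under 2-fold or to genes that shift together between cultures. Alternatives changed scaling, filter, tool (DESeq2 1.42.0), libraries and block.

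The members and lists were chosen with earlier results of these data known. Of 225 listed symbols 2 were not found and 3 were matched by synonym. Values per library are given for 6 genes chosen by name (Cdk1, Ccnb1, Ccnb2, Ccna2, Foxm1 and Mki67), the 6 largest rises, the 3 lowest changes and the checkpoint genes, with further members added to show a role. Genes named from a list are its 2 largest called rises and falls, if expressed at 5 CPM or more, and its most abundant gene per length. Promoter windows come from RefSeq (GRCm38.p6). Ccna2, Aurkb, Cdc25c, Foxm1, Tpx2, Kif20a, Spc24 and Incenp had no window used here.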

Additional observations from a re-analysis of the deposited data

How the results depend on the processing

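With another scaling, filter or tool, 26 to 30 of the 46 genes were called higher, and their median log2 change was 0.54 to 0.60 (0.56 with chromosome medians and 0.55 with neighbour medians subtracted). Leaving out 1 culture at a time gave 12 to 36 called higher, 0 to 1 called lower, 0 to 3 higher beyond 2-fold (1 with DESeq2), a median of 0.41 to 0.74, and over all genes 1527 to 3222 higher and 2189 to 3625 lower. For the lists, leaving out 1 culture gave 3 to 8 called entry regulators, 2 to 9 APC/C genes, 6 to 17 other kinetochore genes, 1 to 7 checkpoint and corona genes, 2 to 13 condensin and cohesin genes, 8 to 20 other spindle genes and 13 to 25 S phase genes. These list counts are in either direction, out of 13, 17, 26, 10, 18, 25 and 36 listed genes in that order. Called counts over all genes also moved between the fits, as given above. The ranges therefore do not separate a change in the lists from that wider change. A lone culture was assumed to vary like the other line, and fewer samples entered those fits. Signs turned in genes that had not passed: Mki67 ranged from -0.046 to 0.79, Cenpf from -0.041 to 0.69 and Spc24 from -0.11 to 0.64 (each negative without MK2 replicate 1), Ttk from -0.044 to 0.42 and Nuf2 from -0.058 to 0.36 (negative without MK1 replicate 1). Kif15 ranged from -0.047 to 0.38 (also -0.031), Prc1 from -0.17 to 0.14 (also 0.076), Zwilch from -0.084 to 0.22 (also -0.00398) and Rad21 from -0.16 to 0.098 (also 0.033), and the cause was not tested. Of the 28 genes called higher, 16 lost the call in at least 1 alternative, all 16 without MK1 replicate 1, and 0 changed sign. The labels do not say whether replicate numbers pair the cultures. The correlation across genes of replicate differences in the lines was -0.15, which does not show whether cultures of the same number were handled together. With the replicate block 24 of the 46 were higher (21.9% of all genes), 1 was lower (25.4%) and 10 other kinetochore genes were called. A crossed block, chosen after seeing the data, joined MK1 replicate 1 with MK2 replicate 2 and MK1 replicate 2 with MK2 replicate 1. With it, 36 were higher (28.6% of all genes) and 1 was lower (31.1%). Such a block takes up the opposite within-line shifts of the mitotic genes, so a higher count was built in. Each of the 46 genes had at least 389 counts in every library.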
